A study of Rattus norvegicus with 6 samples.

Results

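The genes described here encode 43 enzymes and regulators of amino acid breakdown: the pathways for histidine, tyrosine, the branched-chain amino acids leucine, isoleucine and valine, proline, lysine, glycine and serine, and the aminotransferases and glutamate dehydrogenase into which many of them feed. They were chosen by name, not by their values. A row was found for 42 of the 43 among the 32623 genes of the table, 41 by their symbol and Prodh under its RefSeq synonym Prodh1. Aldh4a1 had no row under its own name and was not analysed here as a member.

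The libraries came from rat liver and were sequenced as poly(A)-selected bulk RNA. Of the 6 libraries, 3 (GM 1 to 3) belonged to the control group, embolized with blank microspheres, and 3 (GZM 1 to 3) to the group embolized with zinc sulfide (ZnS) microspheres, so that both groups had been embolized. In embolization, particles lodged in feeding vessels cut the blood supply of tissue downstream, and by its title the study concerns hepatocellular carcinoma. The sources used here do not give strain, age, time after embolization or how much of a piece was tumour. The samples are numbered as biosamples and not said to be separate animals, so the p-values may reflect technical spread between libraries alone.

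The liver is the main site where the carbon skeletons of most amino acids are broken down. An aminotransferase usually moves the nitrogen to glutamate, from which glutamate dehydrogenase can release it for urea synthesis, while the remaining carbon ends in the citric acid cycle, in ketone bodies or in glucose. The branched-chain amino acids are an exception, because hepatocytes have little of the aminotransferase that starts their breakdown but are rich in the dehydrogenase complex that follows it.

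Across these pathways most members were higher after embolization with ZnS microspheres. Of the 42 members, 35 were higher in GZM (edgeR quasi-likelihood test, Benjamini-Hochberg adjusted p under 0.05), against 22.2% of the 14298 genes tested, and 2 were lower, against 21.7%. The remaining 5 (Bckdhb, Bckdk, Mccc1, Sds and Got2) did not pass. All 42 members passed the filter on low counts. The median log2 fold change was 1.54 over the members and -0.09 over all genes tested. The 3 GZM libraries lay above all 3 GM libraries for 38 members, as they did for 28.4% of genes tested, and below them for 3 (Bcat1, Bcat2 and Bckdk), as for 29.7%. Sds was the member whose groups overlapped. Among the 35 that rose, 17 rose at least 4-fold, 15 between 2- and 4-fold and 3 (Dbt, Ivd and Got1) less than 2-fold. The GM libraries were not alike: GM 3 was the highest of them for 33 of the 35 and GM 2 the lowest for 28. Members together took 0.29%, 0.27% and 0.372% of all counts in GM 1 to 3, against 0.665%, 0.575% and 0.526% in GZM 1 to 3. No GM library reached the lowest GZM library on this summed share.

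Composition of the libraries bears on every value that follows. Total counts ran from 13443115 to 16604067. A list of 18 hepatocyte marker genes, such as Alb (serum albumin), Tf (transferrin) and Hpx (hemopexin), took 4.4%, 3.1% and 9.96% of counts in GM 1 to 3, against 17.6%, 18.4% and 17.2% in GZM 1 to 3, and all 18 rose (median log2 fold change 2.54). All 8 markers of cycling cells, among them Top2a and Mki67, fell (median -2.26), with summed shares of 0.0523% to 0.168% in GM and 0.0117% to 0.0141% in GZM. Of 8 macrophage markers, 5 fell (Lyz2 and Csf1r among them) and 2 rose (Clec4f, known from Kupffer cells, among them), and the summed share was 0.44% to 0.605% in GM and 0.112% to 0.157% in GZM. Of 5 tested erythroid markers, 2 rose, Hbb and Hba-a2, whose family members can share reads; the summed share was 0.00953% to 0.0358% in GM and 0.0311% to 0.0582% in GZM. Falls in other lists were 1 of 7 for stellate cells and fibroblasts and 2 of 8 for T and NK cells. They were 1 of 6 for neutrophils, against 21.7% of all genes tested. As a share of plain counts, the sum of each of these lists was lower in every GZM library than in any GM library. It was 0.502% to 1.38% in GM and 0.14% to 0.307% in GZM for stellate cells and fibroblasts, 0.0428% to 0.063% and 0.00672% to 0.0185% for T and NK cells, and 0.0101% to 0.0146% and 0.00383% to 0.00704% for neutrophils. Rises were 5 of 7 for endothelial cells and 2 of 8 for cholangiocytes, against 22.2% of all genes tested. The summed shares of both lists overlapped between the groups. For endothelial cells they were 0.0185% to 0.0302% in GM and 0.0258% to 0.0335% in GZM. For cholangiocytes they were 0.019% to 0.0428% in GM and 0.012% to 0.0192% in GZM. Shares lack the TMM scaling (described below) that the calls use. With it, the summed CPM of stellate cells and fibroblasts overlapped, at 3544 to 9672 in GM and 1766 to 4142 in GZM. Neutrophil sums overlapped too, at 71.2 to 102 and 51.6 to 88.8. T and NK cell sums stayed lower in GZM, at 302 to 538 and 94 to 249. Endothelial sums were then higher in every GZM library, at 131 to 253 and 360 to 422. None of 6 B and plasma cell markers passed in either direction. No marker with a row was at 0 in every library of a group. The part that cell composition has in the members' changes was not tested; in bulk tissue, fewer cells of a type and less RNA per cell cannot be told apart. Scaling also matters: with plain library totals in place of TMM factors (edgeR's scaling, which assumes that most genes do not change), the median log2 fold change of all genes tested moved from -0.09 to -0.92, calls over all genes went from 3181 higher and 3104 lower to 1315 and 8513, and members called went to 28 higher and 3 lower.

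**Figure D1:**
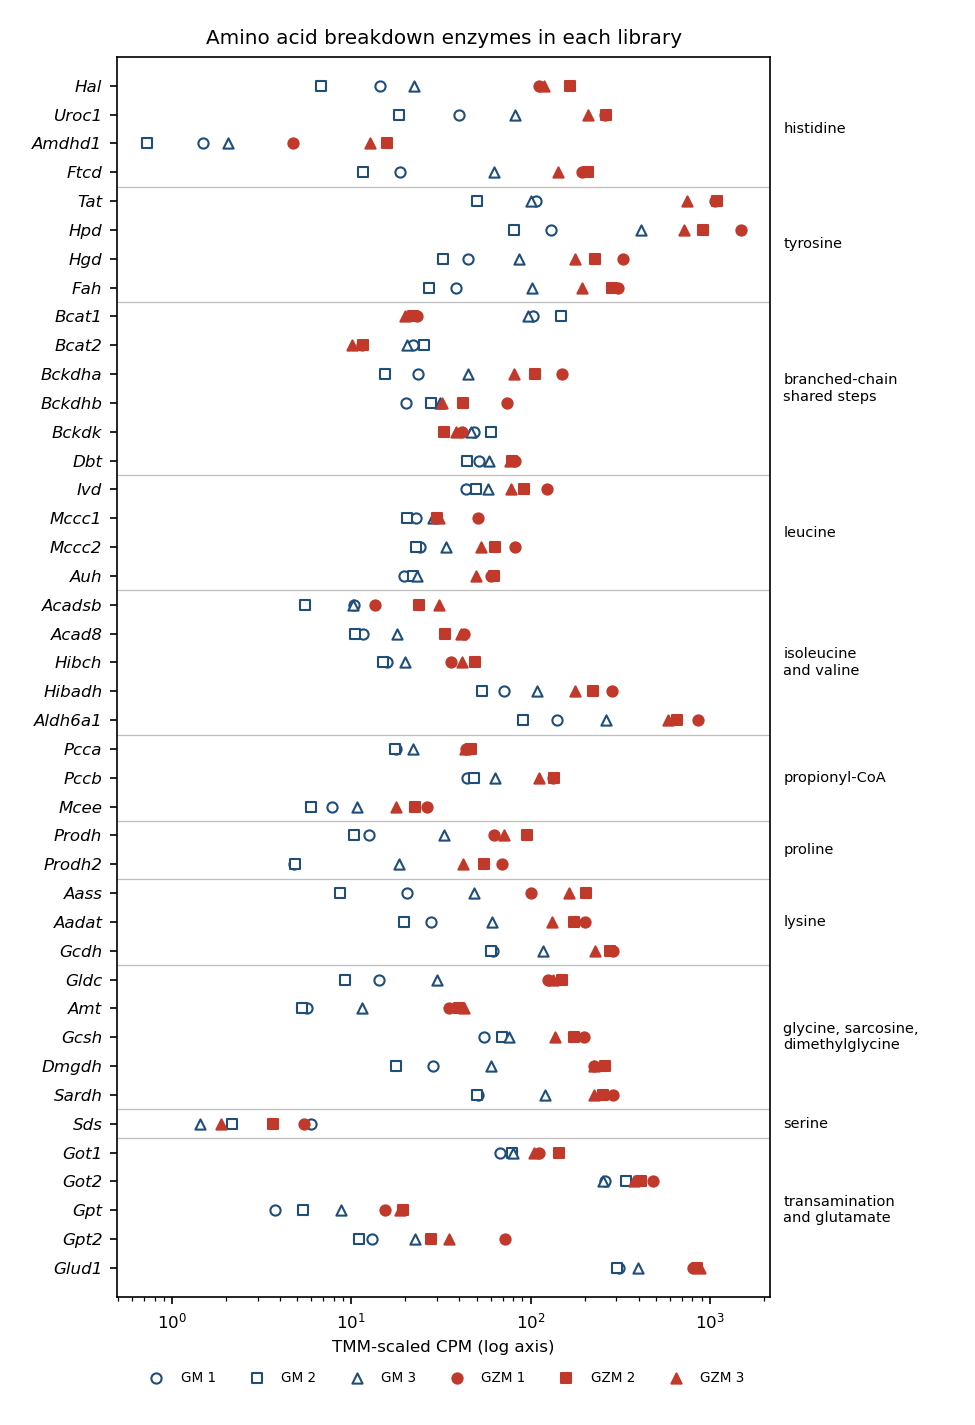
Each row is 1 of 42 members, grouped by pathway, and each symbol 1 library: TMM-scaled CPM on a log axis, GM open and GZM filled. Filled symbols lie to the right of the open ones for 38 members, to the left for Bcat1, Bcat2 and Bckdk, and among them for Sds.

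CPM values given for a gene are its counts scaled by library size and TMM factor, and FPKM values are divided by exon length as well. Per length (FPKM, TMM-scaled), the most abundant members in GM were Hpd at 136 ± 118 (SD, n = 3), Got2 at 120 ± 20.2 and Glud1 at 117 ± 18.8, whose means differ by less than their spread. In GZM they were Hpd at 675 ± 260, Tat at 419 ± 84.5 and Glud1 at 294 ± 13. Tat stood 11th among members in GM and Bcat1 7th, at 44 ± 10.4; in GZM Bcat1 stood 39th, at 8.29 ± 0.643. The lowest were Amdhd1 in GM (0.612 ± 0.287) and Sds in GZM (2.59 ± 1.25). Hpd and Tat encode steps of tyrosine breakdown, Glud1 glutamate dehydrogenase and Got2 the mitochondrial aspartate aminotransferase. The sequences around the start sites of these 4 members, each among the leading 3 of a group, are printed here because the count of CG dinucleotides is compared with the size of the change further on. Each window runs 5′ to 3′ on the gene's strand from 250 bases before to 50 bases after the RefSeq start (build GRCr8), with CG dinucleotides in capitals. The windows are chr12:39041996-39042295 for Hpd (2 CG), chr19:54856354-54856653 for Tat (5 CG), chr16:9646319-9646618 for Glud1 (51 CG) and chr19:9180178-9180477 for Got2 (23 CG), all on the plus strand of that build.
Hpd: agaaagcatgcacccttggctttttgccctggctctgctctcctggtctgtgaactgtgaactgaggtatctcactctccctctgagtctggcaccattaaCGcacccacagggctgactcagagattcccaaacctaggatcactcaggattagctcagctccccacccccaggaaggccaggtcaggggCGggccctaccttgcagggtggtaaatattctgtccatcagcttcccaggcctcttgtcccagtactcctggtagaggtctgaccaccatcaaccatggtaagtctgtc
Tat: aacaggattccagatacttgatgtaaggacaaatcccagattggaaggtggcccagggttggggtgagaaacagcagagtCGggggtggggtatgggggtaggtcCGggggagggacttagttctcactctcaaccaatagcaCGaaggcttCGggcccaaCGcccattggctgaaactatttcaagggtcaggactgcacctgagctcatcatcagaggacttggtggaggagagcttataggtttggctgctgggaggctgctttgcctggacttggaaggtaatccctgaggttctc
Glud1: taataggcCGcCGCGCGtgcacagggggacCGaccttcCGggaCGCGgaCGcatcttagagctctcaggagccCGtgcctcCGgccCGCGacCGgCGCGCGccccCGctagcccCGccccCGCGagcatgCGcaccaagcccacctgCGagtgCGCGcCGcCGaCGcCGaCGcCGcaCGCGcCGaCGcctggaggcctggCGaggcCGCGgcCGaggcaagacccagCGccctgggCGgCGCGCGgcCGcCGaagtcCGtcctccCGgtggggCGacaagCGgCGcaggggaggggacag
Got2: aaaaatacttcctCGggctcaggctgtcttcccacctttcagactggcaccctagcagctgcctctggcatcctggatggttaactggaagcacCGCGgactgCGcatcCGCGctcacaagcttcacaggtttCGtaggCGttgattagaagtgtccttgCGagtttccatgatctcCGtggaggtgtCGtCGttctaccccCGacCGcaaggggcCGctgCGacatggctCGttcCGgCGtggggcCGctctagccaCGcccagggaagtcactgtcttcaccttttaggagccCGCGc

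Transcripts of histidine breakdown were higher at all 4 steps in GZM, with a median log2 fold change of 2.76. Hal, histidine ammonia-lyase, which removes the amino group and makes urocanate, stood at 14.4, 6.81 and 22.3 CPM in GM 1, 2 and 3 and at 112, 167 and 119 CPM in GZM 1, 2 and 3. The gap between the groups was wider on a log scale than the spread within either of them. The log2 fold change of Hal was 3.20 ± 0.41 (SE), a 9.17-fold rise (adjusted p = 0.00238). Uroc1, urocanate hydratase, rose by 2.38 ± 0.48 (adjusted p = 0.00693), from 46.9 ± 32.4 to 245 ± 31.4 CPM (SD, n = 3). Amdhd1, imidazolonepropionase, rose by 2.97 ± 0.55 (adjusted p = 0.00508) at a low level, 1.49, 0.723 and 2.06 CPM in GM against 4.71, 15.8 and 12.8 CPM in GZM. GZM 1 was the lowest GZM library for Amdhd1 and for Hal. Ftcd, which passes the formimino group of the histidine skeleton to folate, rose by 2.55 ± 0.58 (adjusted p = 0.0108), with GM 3 at 62.8 CPM and the other GM libraries at 18.6 and 11.6 CPM. Without GM 3 the log2 fold change was 3.62 for Ftcd and 3.10 for Uroc1. These values were 2.14 and 1.99 without GM 2, and 1.80 and 1.61 with library totals. Hal and Amdhd1 are neighbours on chromosome 7 in the deposited table, at 34326087 to 34356413 on the plus strand and 34361633 to 34406318 on the minus strand, with 5219 bases between them and their ends facing each other. Amdhd1 overlaps Ccdc38 on the opposite strand, which had at most 75 counts in a library. The strand setting of the counter is not given, so the low counts of Amdhd1 are less certain.

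Transcripts of tyrosine breakdown were higher at all 4 measured steps (median log2 fold change 2.27). Tat, tyrosine aminotransferase, the first step and a classical target of glucocorticoids and glucagon, stood at 107, 50.5 and 101 CPM in GM and 1063, 1097 and 743 CPM in GZM. Its libraries were separated by a wide gap, and its 11.3-fold rise (log2 3.49 ± 0.36, adjusted p = 0.00192) was the highest of any member with all 6 libraries. Without GM 3 Hal (3.69) exceeded Tat (3.66), and without both GM 3 and GZM 1 Hal (3.83), Amdhd1 (3.77), Aass (3.74) and Gldc (3.66) exceeded Tat (3.63). Unlike most members, Tat was not highest in GM 3 among the GM libraries. Hpd, which converts 4-hydroxyphenylpyruvate to homogentisate, stood at 130, 81.1 and 415 CPM in GM and 1483, 914 and 713 CPM in GZM. Its rise of 2.31 ± 0.61 (adjusted p = 0.0185) missed the threshold without GM 1 (2.06, adjusted p = 0.0707) and without GZM 1 (1.97, adjusted p = 0.0504), and was 3.33 without GM 3. Hgd, homogentisate dioxygenase, rose from 54.5 ± 28.1 to 244 ± 75.9 CPM (2.16 ± 0.40, adjusted p = 0.00499). Fah, fumarylacetoacetase, the last step, rose from 55.8 ± 40.2 to 262 ± 61.0 CPM (2.23 ± 0.48, adjusted p = 0.00877). The log2 fold change of Fah was 3.03 without GM 3, 1.89 without GM 2 and 1.46 with library totals. Windows for Hpd and Tat, printed above, are those with few CG dinucleotides.

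The shared steps of branched-chain breakdown moved in both directions, with 2 members lower, 2 higher and 2 not passing, and a median log2 fold change of 0.08. Both aminotransferases, which start the pathway, fell. Bcat1, the cytosolic form, known from brain, developing tissues and many tumours, stood at 103, 147 and 97.3 CPM in GM and 23.4, 22.2 and 20.0 CPM in GZM. The GZM libraries lay close together and far below all GM libraries, a 5.31-fold fall (log2 -2.41 ± 0.20, adjusted p = 0.00185). Bcat2, the mitochondrial form, stood at 22.2, 25.5 and 20.5 CPM in GM and 11.5, 11.6 and 10.1 CPM in GZM. It fell 2.06-fold (log2 -1.04 ± 0.18, adjusted p = 0.00423), again without overlap. GM 2, the lowest GM library for 28 of the 35 members that rose, was the highest for both aminotransferases. In the deposited positions Bcat1 lies on chromosome 4 from 179259308 to 179339795 and Bcat2 on chromosome 1 from 101554642 to 101572080.

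The branched-chain ketoacid dehydrogenase complex, which commits the carbon skeletons to oxidation, did not follow the aminotransferases. Bckdha, its E1 alpha subunit, stood at 23.5, 15.5 and 44.7 CPM in GM and 149, 106 and 80.9 CPM in GZM, a rise of 2.01 ± 0.40 (adjusted p = 0.00654). Bckdhb, the E1 beta subunit, stood at 20.1, 28.0 and 31.4 CPM in GM and 73.7, 41.8 and 32.0 CPM in GZM. Its groups barely missed each other, with GZM 3 just above GM 3, and its difference of 0.89 ± 0.32 did not pass (adjusted p = 0.0525). Without GM 3 it was 1.07 (adjusted p = 0.0334) and without GZM 3 it was 1.13 (adjusted p = 0.0307). The difference did not pass without GM 1 (0.72, adjusted p = 0.16) or GM 2 (0.93, adjusted p = 0.0973). With library totals it was 0.06 (adjusted p = 0.859). Dbt, the E2 core, stood at 51.8, 44.1 and 58.4 CPM in GM and 81.5, 78.5 and 76.7 CPM in GZM. Dbt rose by 0.62 ± 0.15 (adjusted p = 0.0142), but missed the threshold without GM 1 (adjusted p = 0.0505) or GZM 2 (adjusted p = 0.0558) and was at -0.21 with library totals. Bckdk, the kinase that switches the complex off, stood at 48.1, 60.2 and 46.3 CPM in GM and 41.2, 33.0 and 38.3 CPM in GZM. All its GZM libraries were below all GM libraries, by a small step that did not pass (-0.46 ± 0.16, adjusted p = 0.0532); it passed without GM 3 (-0.49, adjusted p = 0.0446). Ppm1k, the phosphatase that switches the complex on, named here after its values were seen, rose by 1.12 ± 0.22 (adjusted p = 0.00597).

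**Figure D2:**
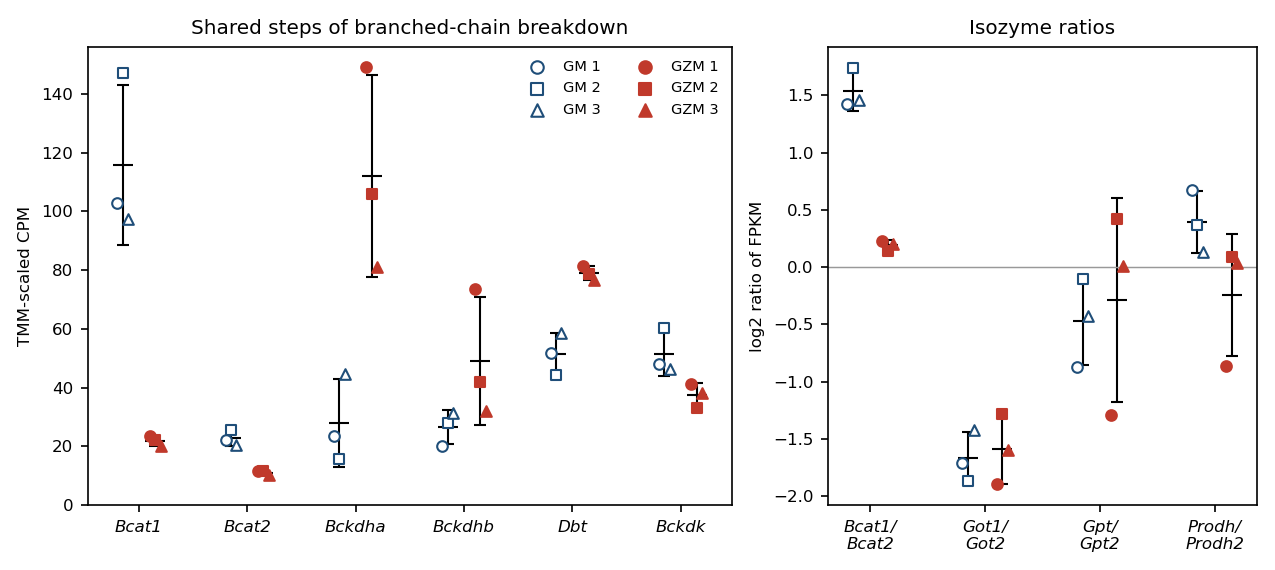
Left, TMM-scaled CPM of the 6 shared branched-chain members by library; right, log2 ratio of FPKM within 4 isozyme pairs. Horizontal marks are group means and bars SD over 3 libraries; Bcat1 and Bcat2 are lower in GZM and Bckdha higher, and the Bcat1/Bcat2 ratio falls from between 1.42 and 1.74 to between 0.14 and 0.23.

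Further along, transcripts of the leucine, isoleucine and valine branches and the propionyl-CoA steps were mostly higher in GZM, by less than those of histidine and tyrosine breakdown. In the leucine branch 3 of 4 rose (median 1.13). Auh, which hydrates 3-methylglutaconyl-CoA, stood at 19.8, 22.0 and 23.2 CPM in GM and 59.9, 62.3 and 49.9 CPM in GZM, 2 tight groups, and rose by 1.40 ± 0.15 (adjusted p = 0.00202). Ivd, isovaleryl-CoA dehydrogenase, rose by 0.96 ± 0.21 (adjusted p = 0.00938) but was at 0.13 with library totals. The subunits of methylcrotonyl-CoA carboxylase differed in outcome. Mccc2 rose by 1.29 ± 0.22 (adjusted p = 0.0041; 0.47 and adjusted p = 0.0588 with library totals). Mccc1, at 23.1, 20.5 and 28.5 CPM in GM and 50.6, 30.1 and 30.9 CPM in GZM, did not pass (0.63 ± 0.24, adjusted p = 0.0675). The gap between its groups was small, and its difference passed without GM 3 (0.81, adjusted p = 0.0301) and was at -0.19 with library totals. Mccc1 shares part of its position with Dcun1d1 on the same strand, so its counts are less certain. Whether the subunits differ from each other was not tested.

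All 5 members of the isoleucine and valine branch rose (median 1.54), as did all 3 of the propionyl-CoA steps (median 1.29). Hibch, 3-hydroxyisobutyryl-CoA hydrolase, stood at 15.8, 15.0 and 19.9 CPM in GM and 36.0, 49.1 and 41.7 CPM in GZM, a rise of 1.32 ± 0.19 (adjusted p = 0.00263). Aldh6a1, the methylmalonate semialdehyde dehydrogenase and the most abundant of the branch, rose from 165 ± 89.1 to 699 ± 140 CPM (2.08 ± 0.40, adjusted p = 0.00571). Acad8, isobutyryl-CoA dehydrogenase, and Hibadh, the following dehydrogenase, rose by 1.54 ± 0.24 and 1.55 ± 0.30. Acadsb, the short and branched-chain acyl-CoA dehydrogenase, rose by 1.39 ± 0.36 (adjusted p = 0.017). GZM 1 was its lowest GZM library, at 13.5 CPM against 24 and 30.8 CPM. The call for Acadsb was lost without GZM 2 (adjusted p = 0.0556), without GZM 3 (adjusted p = 0.0635) and with library totals (0.58, adjusted p = 0.183). Pcca, the propionyl-CoA carboxylase alpha subunit, stood at 17.7, 17.6 and 22.2 CPM in GM and 43.7, 46.7 and 43.3 CPM in GZM. It rose by 1.22 ± 0.16 (adjusted p = 0.00236; 0.39 and adjusted p = 0.0536 with library totals). Pccb, its partner subunit, rose by 1.29 ± 0.19 and Mcee, methylmalonyl-CoA epimerase, by 1.45 ± 0.27. In each of these pathways the GZM libraries lay above the GM libraries for every member.

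In the proline pathway both oxidases rose. Prodh, proline dehydrogenase, went from 18.5 ± 12.4 to 76.3 ± 17.3 CPM (2.04 ± 0.43, adjusted p = 0.0081). Prodh2, the hydroxyproline dehydrogenase of liver and kidney, stood at 4.82, 4.85 and 18.4 CPM in GM and 69.2, 55 and 42.1 CPM in GZM. GM 3 stood well above the other GM libraries and still below all GZM libraries, and the rise was 2.57 ± 0.53 (adjusted p = 0.00737). Without GM 3 the log2 fold change was 3.55 for Prodh2 and 2.78 for Prodh. These values were 2.25 and 1.74 without GM 2, and 1.81 and 1.27 with library totals. All 3 lysine members rose (median 2.23). Gcdh, glutaryl-CoA dehydrogenase, stood at 61.6, 60.1 and 118 CPM in GM and 288, 278 and 228 CPM in GZM, a rise of 1.72 ± 0.30 (adjusted p = 0.00407); it overlaps Syce2 on the opposite strand. Aass, which carries out the first steps of lysine breakdown, rose by 2.60 ± 0.58 (adjusted p = 0.01) and Aadat, aminoadipate aminotransferase, by 2.23 ± 0.41 (adjusted p = 0.00508). These values were 3.46 and 2.86 without GM 3, 2.18 and 1.93 without GM 2, and 1.84 and 1.44 with library totals. Aass spread more than the others within GZM, from 100 CPM in GZM 1 to 204 CPM in GZM 2.

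Transcripts of glycine cleavage and of dimethylglycine and sarcosine demethylation were higher throughout, with all 5 members rising (median 2.38). Amt, the T-protein of the glycine cleavage system, stood at 5.69, 5.28 and 11.5 CPM in GM and 35.1, 39.8 and 42.3 CPM in GZM, a rise of 2.38 ± 0.31 (adjusted p = 0.0024). Gldc, the P-protein that decarboxylates glycine, stood at 14.2, 9.28 and 30.1 CPM in GM and 125, 150 and 133 CPM in GZM and rose by 2.93 ± 0.41 (adjusted p = 0.00253). Both showed GZM libraries close together and GM 3 high among the controls. Gcsh, the H-protein that carries the intermediate, rose by less, 1.35 ± 0.21 (adjusted p = 0.00307). Dmgdh and Sardh, the mitochondrial dehydrogenases of dimethylglycine and sarcosine, rose by 2.74 ± 0.42 and 1.79 ± 0.36. Without GM 3 the log2 fold change was 3.57 for Gldc and 3.40 for Dmgdh. These values were 2.61 and 2.41 without GM 2, and 2.15 and 1.96 with library totals. Sds, serine dehydratase, which turns serine into pyruvate, was an exception: it stood at 5.93, 2.17 and 1.44 CPM in GM and 5.42, 3.68 and 1.88 CPM in GZM. Its groups overlapped, GM 1 and GZM 1 being the high libraries, and its difference of 0.19 ± 0.60 did not pass (adjusted p = 0.81). The sign of Sds changed without GM 2, GM 3 or GZM 1 (-0.02, -0.12 and -0.19), and its value was 1.00 without GM 1.

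The aminotransferases of aspartate and alanine and glutamate dehydrogenase, on which several pathways converge, rose by moderate amounts (4 of 5, median 1.32). Glud1, glutamate dehydrogenase, stood at 310, 302 and 399 CPM in GM and 803, 847 and 877 CPM in GZM. The groups were far apart and narrow, and Glud1 rose by 1.32 ± 0.21 (adjusted p = 0.00345). Gpt, the cytosolic alanine aminotransferase, rose by 1.58 ± 0.32 (adjusted p = 0.00702) and Gpt2, the mitochondrial form, by 1.53 ± 0.41 (adjusted p = 0.0186). GZM 1 stood apart for Gpt2, at 72.4 CPM against 27.8 and 35.3 CPM, and the call was lost without GM 1 (adjusted p = 0.0685), without GM 2 (adjusted p = 0.0588) and with library totals (adjusted p = 0.106). Got1, the cytosolic aspartate aminotransferase, rose by 0.67 ± 0.18 (adjusted p = 0.0181), but did not pass once GM 1 (adjusted p = 0.0756) or GZM 2 (adjusted p = 0.0821) was left out, and was at -0.16 with library totals. Got2 stood at 261, 339 and 252 CPM in GM and 484, 411 and 377 CPM in GZM. Its groups did not overlap, but the difference of 0.58 ± 0.21 did not pass (adjusted p = 0.0552); it passed without GM 2 (0.72, adjusted p = 0.0302) and was -0.27 with library totals.

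**Figure D3:**
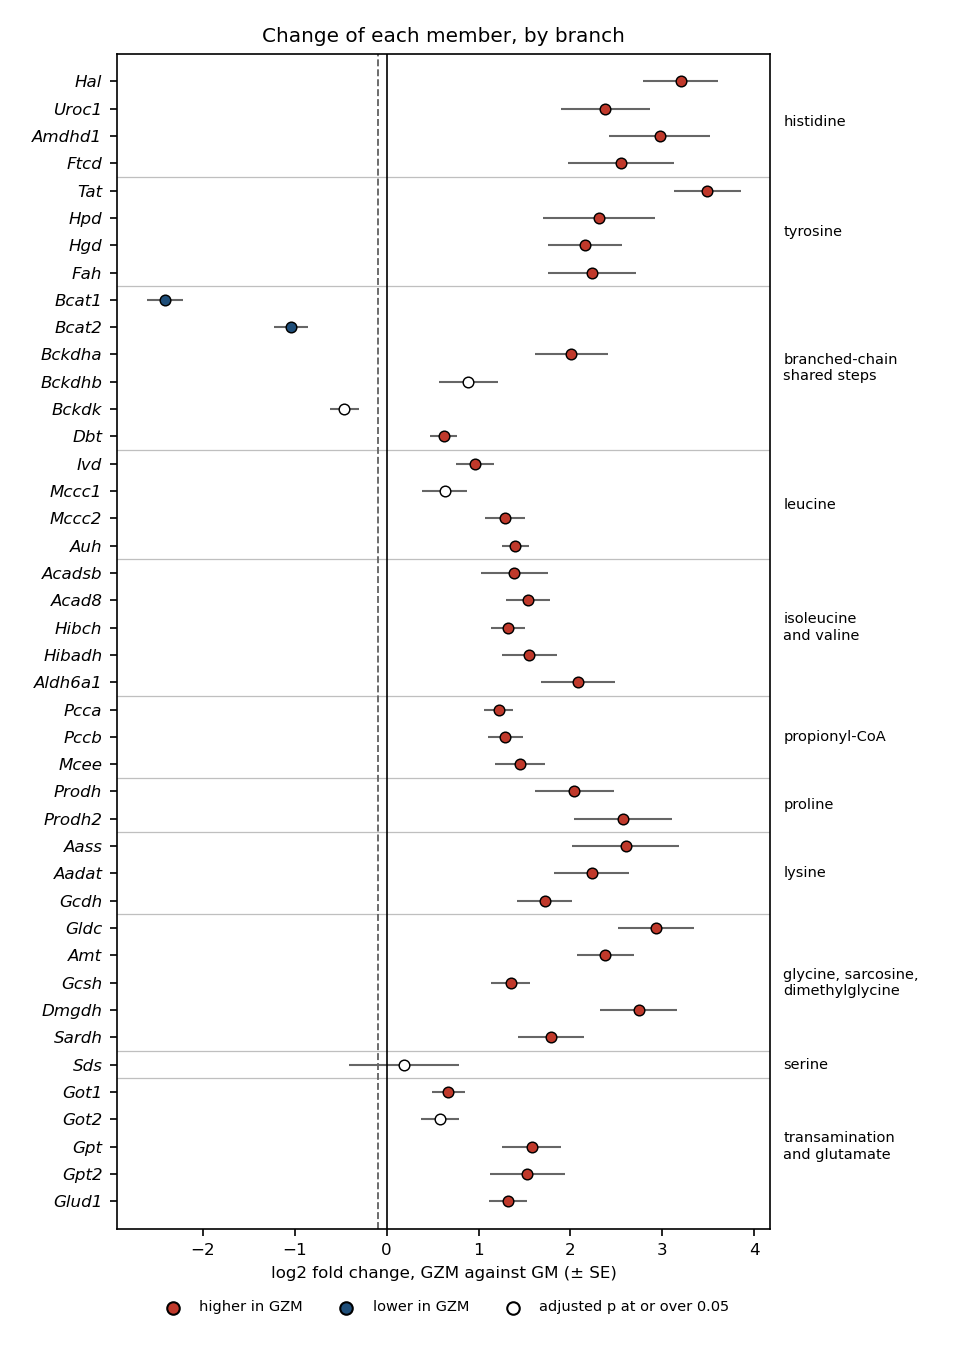
Points are log2 fold changes of GZM against GM with SE bars for 42 members by pathway; red and blue passed an adjusted p of 0.05, white did not, and the dashed line is the median of all 14298 genes tested (-0.09). Tat, Hal, Amdhd1 and Gldc lie furthest right, Bcat1 and Bcat2 left of 0; with library totals Dbt, Mccc1, Sds, Got1 and Got2 would lie left of 0 too.

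Within isozyme pairs the balance was compared by the ratio of FPKM in the same library, which needs no scaling between libraries. Bcat1 exceeded Bcat2 by 2.68, 3.33 and 2.74 times in GM 1 to 3, against 1.17, 1.1 and 1.15 times in GZM 1 to 3. The groups did not overlap, and the mean log2 ratio differed by -1.35 (two-sided exact permutation p = 0.1, the smallest that 3 against 3 samples allow; adjusted p = 0.2 over 4 pairs). Prodh over Prodh2 had log2 ratios of 0.67, 0.37 and 0.13 in GM, against -0.86, 0.09 and 0.04 in GZM. These groups did not overlap either (difference -0.63, exact permutation p = 0.1, adjusted p = 0.2), but GZM 1 carried much of the difference, which was -0.33 without it. For Got1 over Got2 the difference was 0.08 (exact permutation p = 0.8) and for Gpt over Gpt2 it was 0.18 (exact permutation p = 0.7), both within the spread between libraries.

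Because hepatocyte transcripts took a larger share of the GZM libraries, each member was also described relative to the 18 hepatocyte markers, as its log2 CPM minus the markers' mean log2 CPM in the same library. That mean was 9.66, 9.12 and 11.16 in GM 1 to 3, against 12.75, 12.92 and 12.60 in GZM 1 to 3, a difference of 2.78, which is more than the rise of most members. On this relative scale 34 of 42 members had a lower mean in GZM and 8 a higher one. A gene at the same level in all 6 libraries would also be lower on this scale. Its groups would not overlap either, because the marker mean of every GM library was below that of every GZM library. The median log2 fold change of all genes tested was -0.09, and the same counts were not made over all genes. For 23 members the GZM libraries lay below all GM libraries, for 18 the groups overlapped, and Gldc alone lay above without overlap. The group means of Gldc differed by 0.30, but GM 1 (-5.81) lay only just below GZM 1 (-5.78). Pathways differed in where they fell. The median relative difference was 0.07 for histidine, -0.27 for tyrosine and for proline, -0.33 for glycine, sarcosine and dimethylglycine and -0.42 for lysine. It was -1.22 for isoleucine and valine, -1.45 for transamination and glutamate, -1.48 for propionyl-CoA, -1.67 for leucine, -2.46 for serine (Sds alone) and -2.70 for the shared branched-chain steps. Tat (0.76) and Hal (0.54) had the highest values, with overlapping groups, and Bckdk (-3.23), Bcat2 (-3.81) and Bcat1 (-5.16) the lowest, without overlap. This is a description with no test, and it depends on which markers stand for hepatocytes.

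**Figure D4:**
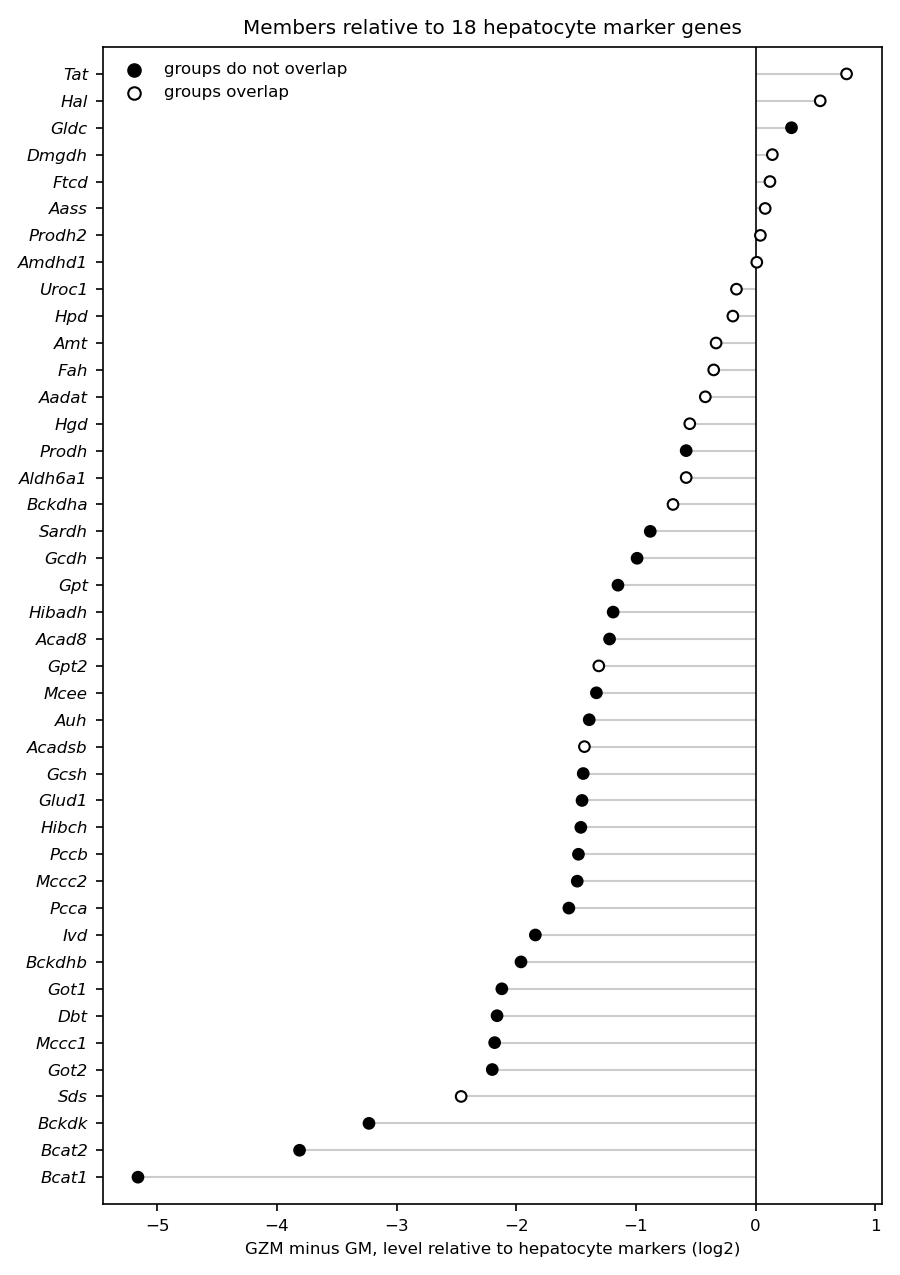
For each of 42 members, the GZM minus GM difference in log2 CPM after subtracting the mean log2 CPM of 18 hepatocyte markers in the same library; filled points have groups that do not overlap. Values run from 0.76 for Tat to -5.16 for Bcat1, and 34 members lie left of 0. A gene at the same level in all 6 libraries would lie there too, with a filled point.

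Periportal and pericentral hepatocytes differ in amino acid metabolism, and their markers moved unevenly. All 8 periportal markers rose (median 2.16), as did the 18 general hepatocyte markers (median 2.54), and Alb is in both lists. Pck1, which makes phosphoenolpyruvate for glucose synthesis, rose 20.2-fold (log2 4.33). The next highest of the periportal list was Gls2 (2.46), and the lowest was Cps1, the entry to the urea cycle, at 3.23-fold (1.69). Of 7 tested pericentral markers (median 1.26) only Cyp1a2 rose, by 2.43 ± 0.61. Of all genes tested, 22.2% were higher. Cyp2e1 (1.77, adjusted p = 0.105) and Rgn (1.51, adjusted p = 0.0893) had positive differences that did not pass. Both spread widely within GZM, at 1800, 403 and 323 CPM for Cyp2e1 and 1112, 291 and 222 CPM for Rgn in GZM 1, 2 and 3. Glul, glutamine synthetase, differed by -0.06 ± 0.28 (adjusted p = 0.881). Whether zonal composition has a part in the members' changes was not tested.

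Among genes around the pathways, rises also outnumbered falls. Of all genes tested, 22.2% were higher and 21.7% lower. Of 36 other amino acid breakdown enzymes, 34 were tested; 31 rose, none fell and 3 did not pass (Echs1, Oat and Aspa), with a median of 1.75. Among those with the smallest p were Etfa (1.56 ± 0.18), which takes electrons from the acyl-CoA dehydrogenases, Aldh7a1 (1.41 ± 0.18) of lysine breakdown and Hsd17b10 (1.64 ± 0.24) of isoleucine breakdown. Of 14 cofactor genes 9 rose, none fell and 5 did not pass (median 0.93). Btd, which recycles biotin, rose by 1.34 ± 0.14, and Qdpr, which regenerates tetrahydrobiopterin, by 1.63 ± 0.24. Mmadhc, of cobalamin handling, rose by 0.90 ± 0.15. Of 10 regulators 6 rose and 4 did not pass (median 1.33). Hnf4a, a transcription factor of hepatocytes, rose by 2.57 ± 0.43, Ppara, a fasting-activated nuclear receptor, by 1.29 ± 0.25, and Klf15, an activator of amino acid breakdown genes, by 2.05 ± 0.42. Nr3c1, the glucocorticoid receptor, named here after its values were seen, stood at 122, 134 and 124 CPM in GM and 146, 124 and 132 CPM in GZM, a difference of 0.08 ± 0.15 that did not pass (adjusted p = 0.699).

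Members whose start site was poor in CG dinucleotides had a higher median fold change than members whose start site was rich in them. RefSeq (GRCr8) gave start windows for 34 of the 42 members, not for Prodh, Bckdha, Sds, Amdhd1, Dmgdh, Gpt, Hal or Mccc2, and 32 had a single window; Bcat1 and Sardh had more than 1, 1 below and 1 above 8 CG (7 and 23 CG for Bcat1, which fell, and 2 and 10 CG for Sardh, which rose), and were left out here. Members without a window ran from 0.19 (Sds) to 3.20 (Hal). Amdhd1 (2.97) and Dmgdh (2.74), which with Hal are among the largest rises, are thus missing from this comparison. The median over all genes with a single window was 8 CG in 300 bases. At or under 8 CG lay 8 members: Ftcd, Hgd, Hpd, Uroc1, Prodh2, Tat, Aass and Amt. These 8 rose, with log2 fold changes from 2.16 to 3.49 (median 2.46). The 24 members over 8 CG had a median of 1.33 and a range from -1.04 to 2.93, with 19 higher and 1 lower. The ranges overlapped, and Gldc (12 CG, 2.93) exceeded every member at or under 8 CG except Tat. Across the 32 members the log2 fold change and the CG count had a Spearman rho of -0.61 and a Pearson r of -0.46, and across all 9677 tested genes with 1 window a rho of -0.05. Of all tested genes, 28.8% of the 1829 at or under 8 CG were higher, and 21.6% of the 7848 over it. Their median log2 fold changes were nearly the same, -0.09 at or under 8 CG and -0.08 over it. The comparison was made after the fold changes were known and is a description; genes are not independent replicates, and all values come from the same 6 libraries.

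**Figure D5:**
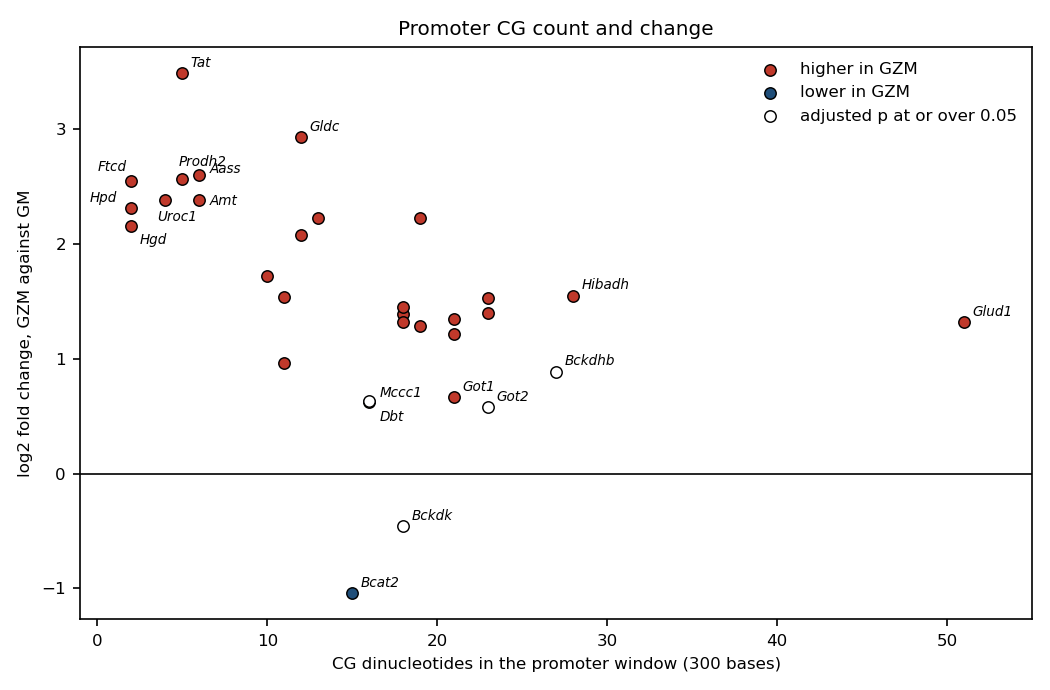
Log2 fold change of GZM against GM (vertical axis) against the number of CG dinucleotides in the 300-base start window (horizontal axis) for 32 members; red and blue passed an adjusted p of 0.05, white did not, and the red point of Dbt lies under that of Mccc1. The 8 members with at most 8 CG lie between 2.16 and 3.49, and Glud1 stands alone at 51 CG with 1.32.

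The same windows were searched on both strands for a forkhead motif (TGTTTAC), an HNF4 motif (CAAAGTNCA, where N is any base) and a C/EBP motif (TTGCGCAA) and no member's window held more than 1 of them. The forkhead letters stood in 1 of 34 members (Auh, from base 7 to base 13 after the start) and in 3.78% of 33469 windows. The C/EBP letters stood in 0 of 34 members and in 0.17% of windows. The HNF4 letters stood in 1 of 34 members and 1.24% of windows. That member was Aadat, where they lie on the opposite strand from base -81 to base -73 before the start, printed here with 10 bases on each side and the match in capitals.
Aadat: actcggtggaTGAACTTTGtcccttctgt
A match says only that these letters stand in this window.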

How the data were processed

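Strand-specific paired-end libraries were made from poly(A)-selected RNA extracted with TRIzol, per the labels' protocols. The sources used here do not give the aligner, the counter or its strand setting. The submitters' processing notes name the build mRatBN 7.2, but some deposited positions lie past the chromosome ends of that build, so the build of the positions is unsettled, and they were not mixed with RefSeq's (GRCr8). Per the file headers the authors deposited, for each sample, a count per gene (whole numbers, not normalized) and an FPKM value, with an exon length. Recomputing FPKM from counts and exon length gave all 195738 deposited values within 0.01.

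Groups and numbers came from the sample descriptions; columns spelled ZGM were matched to the GZM samples. In R 4.3.3, all genes left by the default filter on low counts (14298) were fitted on group alone with edgeR 4.0.16 and tested by quasi-likelihood, using TMM factors (1.43, 1.42 and 1.17 in GM, 0.742, 0.715 and 0.793 in GZM) and Benjamini-Hochberg adjusted p-values with a threshold of 0.05. SEs were derived from the quasi-F value. TMM factors also scaled the CPM values, and log2 CPM used a prior count of 2. The script was tested on simulated data. Isozyme ratios used an exact permutation test (scipy 1.17.1). Replicates differed by more than sampling noise (chi-square per degree of freedom 10.5 to 194), so each library counted as 1 sample. Alternatives were no filter, DESeq2 1.42.0, median-of-ratios factors, library totals, a replicate block, each library left out, GM 3 and GZM 1 left out together and, for ratios, FPKM + 0.1.

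Every member is named; of other pathway lists, the 4 of smallest p that passed, some of which are not reported here. Values by library are given for the member of smallest p in each pathway and for those that fell or did not pass, and for further members chosen after their values were seen. The members and lists were chosen with earlier results of these data known.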

Additional observations from a re-analysis of the deposited data

How the results depend on the processing

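Under 12 alternatives 29 of 42 members, 27 higher ones with Bcat1 and Bcat2, had the same call as reported. The counts of members higher and lower were 36 and 2 without the low-count filter, 37 and 2 with DESeq2, 37 and 2 with median-of-ratios factors, 28 and 3 with library totals, 37 and 3 without both GM 3 and GZM 1, and from 31 to 37 and from 2 to 3 when each library was left out in turn. Over all genes the share called higher was 22.2%, 9.2% with library totals, where 59.5% were lower. With library totals the log2 fold change turned to -0.21 for Dbt, -0.19 for Mccc1, -0.70 for Sds, -0.16 for Got1 and -0.27 for Got2, since these factors lower every value by about the same amount; Ivd, Mccc2, Acadsb, Pcca and Gpt2 no longer passed, and Bckdk did (-1.30, adjusted p = 0.00163). Sds, not called, ran from -0.19 to 1.00 with 1 library left out (-0.02 without GM 2, -0.12 without GM 3, -0.19 without GZM 1) and was -0.48 without both GM 3 and GZM 1; the cause was not tested. The Got1/Got2 ratio turned to -0.02 without GM 2 and -0.08 without GZM 2 (range -0.08 to 0.23), and the Gpt/Gpt2 ratio to -0.03 without GM 1 and -0.18 without GZM 2 (range -0.18 to 0.68). Same-numbered samples did not deviate together (r = -0.14, 0.16 and -0.274 for numbers 1, 2 and 3); with the replicate block 35 members were higher and 2 lower, no member's call changed, and all-gene calls were 2676 higher and 2490 lower. With 3 libraries in each group and GM 3 apart from the other controls, small differences such as those of Bckdhb, Bckdk, Mccc1 and Got2 lie at the threshold with TMM factors. With library totals Bckdhb was at 0.06 (adjusted p = 0.859). Low levels (Amdhd1, Sds) rest on few counts.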

Other observations

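A row of the table labelled Tas1r2 (ENSRNOG00000061876, chromosome 5 from 158042587 to 158135733, exon length 7516 bases) carries annotation of both a taste receptor and of 1-pyrroline-5-carboxylate dehydrogenase, the enzyme that follows proline dehydrogenase and is encoded by Aldh4a1. It stood at 76.3, 75.7 and 107 CPM in GM 1, 2 and 3 and at 384, 250 and 220 CPM in GZM 1, 2 and 3. All GZM libraries lay above all GM libraries, and the log2 fold change was 1.72 ± 0.27 (edgeR, adjusted p = 0.00318). The counts of this row cannot be divided between the genes, so it was not counted as a member.

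Oat, ornithine aminotransferase, which lies on the path from proline and arginine to glutamate and is also a pericentral marker, stood at 105, 95.9 and 83.8 CPM in GM and 130, 59.4 and 56.4 CPM in GZM. GZM 1 was the highest of all 6 libraries for Oat and the other GZM libraries the lowest, and its difference of -0.22 ± 0.32 did not pass (adjusted p = 0.606). GZM 1 also stood above the other GZM libraries for the pericentral markers Cyp2e1 (1800 CPM against 403 and 323 CPM) and Rgn (1112 CPM against 291 and 222 CPM).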
